A study of Homo sapiens with 36 samples.

Results

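The 36 genes described here encode proteins that add, remove or bind acetyl groups on histones. They were picked by gene name from the 58735 genes of one table of read counts covering 36 RNA-seq libraries. The set comprises 13 histone acetyltransferases (EP300, CREBBP, KAT2A, KAT2B, KAT5, KAT6A, KAT6B, KAT7, KAT8, HAT1 and NCOA1 to NCOA3), 11 classical deacetylases (HDAC1 to HDAC11), 7 sirtuins (SIRT1 to SIRT7) and 5 bromodomain proteins (BRD1, BRD2, BRD3, BRD7 and BRD9). All 36 genes had reads in all 36 libraries.

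Histone acetyltransferases, the writers, move an acetyl group from acetyl-CoA to lysines of histone tails, which loosens chromatin and marks active promoters and enhancers. Deacetylases, the erasers, take it off again; the classical enzymes use a zinc ion and the sirtuins use NAD+. Bromodomain proteins, the readers, hold acetylated lysines and bring other factors to them. ATP citrate lyase, encoded by ACLY, cuts citrate in the cytosol and nucleus to make the acetyl-CoA that the writers use. The libraries measure RNA only: acetylation itself and enzyme activity were not measured.

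The RNA came from 3 established human head and neck squamous cell carcinoma lines, HN4, HN6 and Cal27, grown in medium with serum depleted of exosomes. In one experiment each line received recombinant human IL-8 at 100 ng/ml for 24 h, or was left untreated. In the other, cells of each line took up an ACLY plasmid or the vector. Each of the 12 groups had 3 libraries, and the labels do not say whether replicates came from separate cultures; a p-value here reflects differences among such libraries, perhaps only technical ones. The series sets the lines apart by their level of CXCR1, an IL-8 receptor, and asks what IL-8 and ACLY do in each. In these libraries CXCR1 had at most 10 reads and group means of at most 0.218 CPM, too few to set the lines apart by its RNA.

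Library totals lay between 16570601 and 20232735 counts. ACLY averaged 2210 ± 65.4 CPM (counts scaled to the library's size) in HN6 with the ACLY plasmid and 268 ± 4.98 CPM in HN6 with vector (SD, n = 3 each), and 1900 ± 40.1 CPM in Cal27 with the ACLY plasmid and 230.1 ± 12.1 CPM in Cal27 with vector. In HN4 it went the other way, at 348 ± 30.4 CPM in the libraries labelled ACLY plasmid and 1508 ± 10 CPM in those labelled vector, so the HN4 plasmid groups are called "labelled" throughout. IL-8 went with more ACLY in HN4 (1351 ± 18.1 CPM treated, 374 ± 5.18 untreated) and Cal27 (1170 ± 110 treated, 233 ± 4.98 untreated), but not in HN6 (224 ± 3.15 treated, 280.2 ± 4.17 untreated). One library in each of 2 groups stood apart in its share of mitochondrially encoded counts: Cal27 IL-8 replicate 3 had 1.06%, against 3.37% and 3.59% in replicates 1 and 2, and HN4 labelled ACLY plasmid replicate 3 had 2.15%, against 5.71% and 6.04%. Of 8 squamous epithelial marker genes, 7 or 8 reached 1 CPM in every group. So did 3 or 4 of 8 fibroblast markers (COL1A1 between 4.55 and 44.9 CPM, PDGFRB between 1.33 and 10.05), 1 of 5 leukocyte markers (CD14, between 2.83 and 6.71) and 1 or 2 of 4 endothelial markers (CDH5, between 3.59 and 23.1), while DCN, PDGFRA, PTPRC, MS4A1 and KDR reached at most 0.12 CPM. Other markers of these lists passed 1 CPM in some groups only. Among fibroblast markers, group means of FAP ran from 0.01752 to 47.65 CPM and those of LUM from 0.017 to 5.119. Among endothelial markers, PECAM1 ran from 0.2856 to 4.001 CPM and VWF from 0.1325 to 4.15. COL1A2, COL3A1, CD3E and CD68 reached at most 0.8025 CPM. The summed fibroblast markers ran from 53.6 to 61.5 CPM in HN6 with the ACLY plasmid and from 18.8 to 22.4 CPM in HN6 with vector. The summed endothelial markers ran from 15.7 to 18.8 CPM in Cal27 with IL-8 and from 26.7 to 28.1 CPM in untreated Cal27; their part in the results was not tested. Both treated Cal27 groups also held RNA seen otherwise in HN4 alone. Over 17 genes of at least 10 CPM in untreated HN4 and at most 0.2 CPM in untreated HN6 and Cal27, Cal27 with the ACLY plasmid had a median 0.506 of the HN4 level and Cal27 with IL-8 a median 0.306, against 0 in Cal27 with vector, in untreated Cal27 and in every HN6 group. The part of this RNA in the Cal27 results below was not tested, and in bulk RNA a change in the cells present and a change in RNA per cell cannot be told apart.

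Per kilobase of gene length, the eraser HDAC1 stood highest, with a median of 61.6 RPKM, that is CPM per kilobase of this length, over the 36 libraries. HDAC1 is a catalytic subunit of several repressor complexes. BRD2, a reader of the BET family, followed at 27.7 RPKM, KAT2A at 20.1, HAT1 at 19.0 and HDAC3 at 16.6, and HDAC8, SIRT4 and HDAC10 closed the order at 0.53, 0.52 and 0.32. The order depends on the gene length used. HDAC11, of 5281 bases, ranked above HDAC8, of 22986 bases, though their medians were 11.9 and 12.2 CPM. In group means of CPM, 31 of the 36 genes stayed at or above 10 CPM in all 12 groups, and 35 at or above 1; the exception was SIRT4, which rested on 3 to 40 reads per library. The highest group mean of a gene was a median 1.88 times its lowest. EP300 had the widest ratio, 7.97, followed by SIRT4 at 7.88, and KAT8 and HDAC1 had the narrowest, 1.27 and 1.29.

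**Figure D1:**
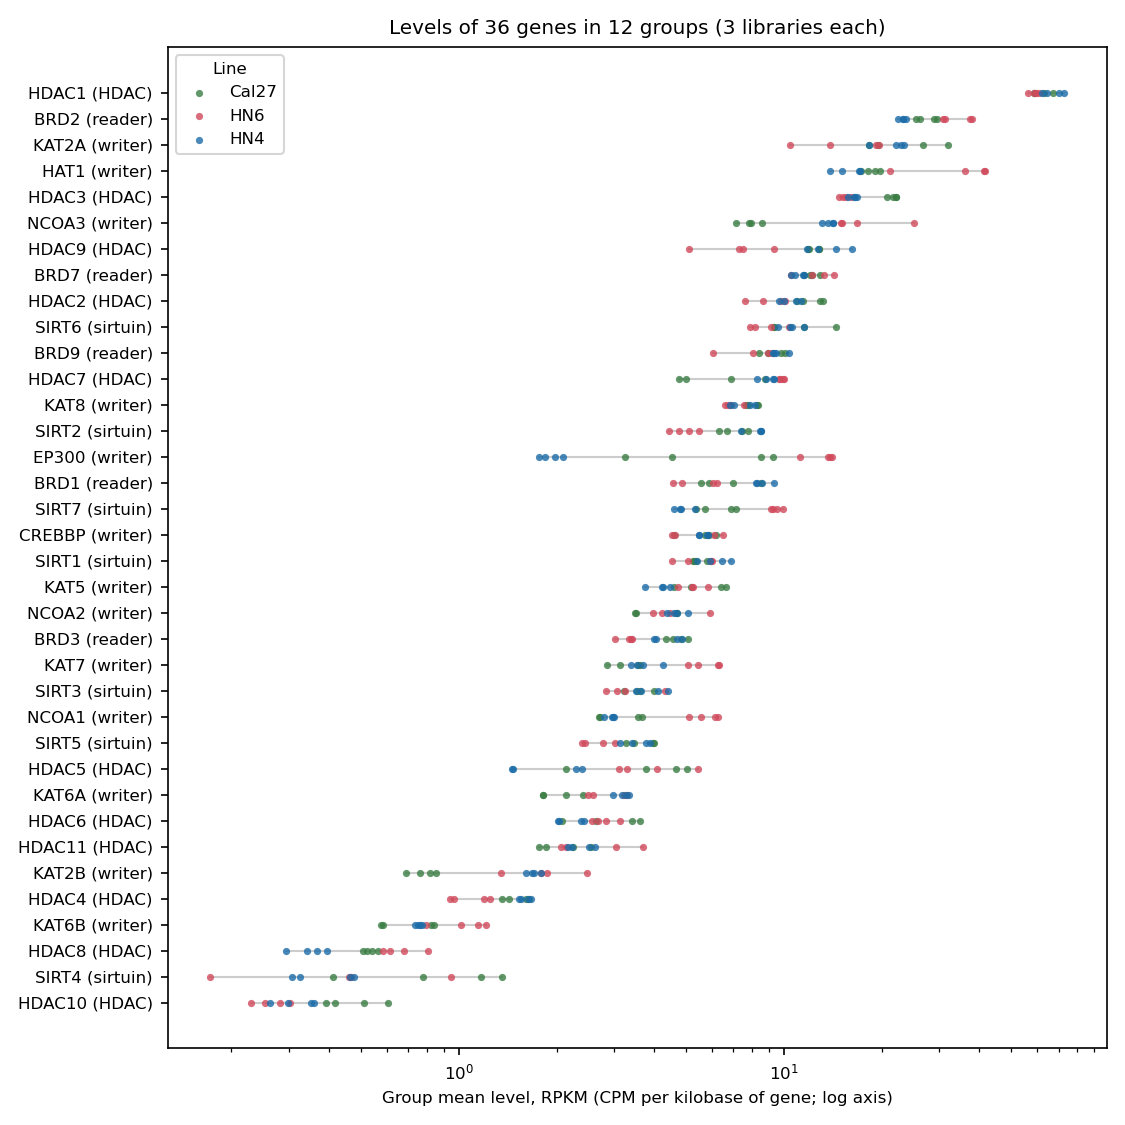
Mean level of each of the 36 genes in the 12 groups, in RPKM on a log axis, 1 point per group coloured by line, with genes ordered by their median over the libraries. HDAC1 is at the top and HDAC10 at the bottom, and the points of EP300 and SIRT4 spread widest, with ratios of highest to lowest of 7.97 and 7.88.

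Summed over the 13 acetyltransferases, HN6 held the most RNA per kilobase. The sum was 114 ± 1.28 RPKM in HN6 with IL-8 and 132.7 ± 5.02 RPKM in untreated HN6, and 109.7 ± 3.04 RPKM in HN6 with the ACLY plasmid and 130.7 ± 3.91 RPKM in HN6 with vector (SD, n = 3 each). The other 8 groups lay between 82.9 and 94.6 RPKM. The 5 readers summed in HN6 to 59.4 ± 0.42 RPKM with IL-8 and 71.0 ± 0.38 untreated, and 55.7 ± 1.91 with the ACLY plasmid and 68.8 ± 1.03 with vector. These sums are descriptions, dominated by the most abundant members, and carry no test.

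Each comparison was tested gene by gene over the whole table with edgeR's quasi-likelihood test and Benjamini-Hochberg adjustment; "called", "rose" and "fell" mean an adjusted p under 0.05. A value after ± is a standard error beside a log2 difference and an SD (n = 3) beside a mean. Unless it is said otherwise, the 3 libraries on each side of a member's called difference did not overlap. Between untreated lines, 20 members were called in HN6 against HN4, 11 higher and 9 lower, where 67.2% of all tested genes were called, 32.4% higher and 34.7% lower. In Cal27 against HN4, 20 were called, 11 higher and 9 lower, beside 63.6% of all genes, 32.2% higher and 31.4% lower. In Cal27 against HN6, 23 were called, 11 higher and 12 lower, beside 68.4% of all genes, 35.3% higher and 33.1% lower. In all of these the members' share stood near or below that of all genes.

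With IL-8, 1 member was called in HN4, 0 higher and 1 lower, where 14.0% of all genes were called, 6.89% higher and 7.09% lower. In HN6, 9 members were called, 1 higher and 8 lower, beside 15.4% of all genes; 7.61% of all genes were called higher and 7.81% lower. In Cal27, 16 were called, 7 higher and 9 lower, beside 39.4% of all genes, 22.7% higher and 16.7% lower. Between the HN4 libraries labelled ACLY plasmid and those labelled vector, 16 members were called, 9 higher and 7 lower, beside 38.1% of all genes, 18.9% higher and 19.1% lower. With the ACLY plasmid in HN6, 22 were called, 9 higher and 13 lower, beside 51.6% of all genes, 26.8% higher and 24.9% lower. With the ACLY plasmid in Cal27, 22 were called, again 9 higher and 13 lower, beside 63.2% of all genes, 34.2% higher and 29.0% lower. The median log2 difference of the 36 members was -0.14 in HN6 with IL-8, beside 0.0022 for all genes, and between -0.036 and 0.059 in the other 5 treatment comparisons.

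**Figure D2:**
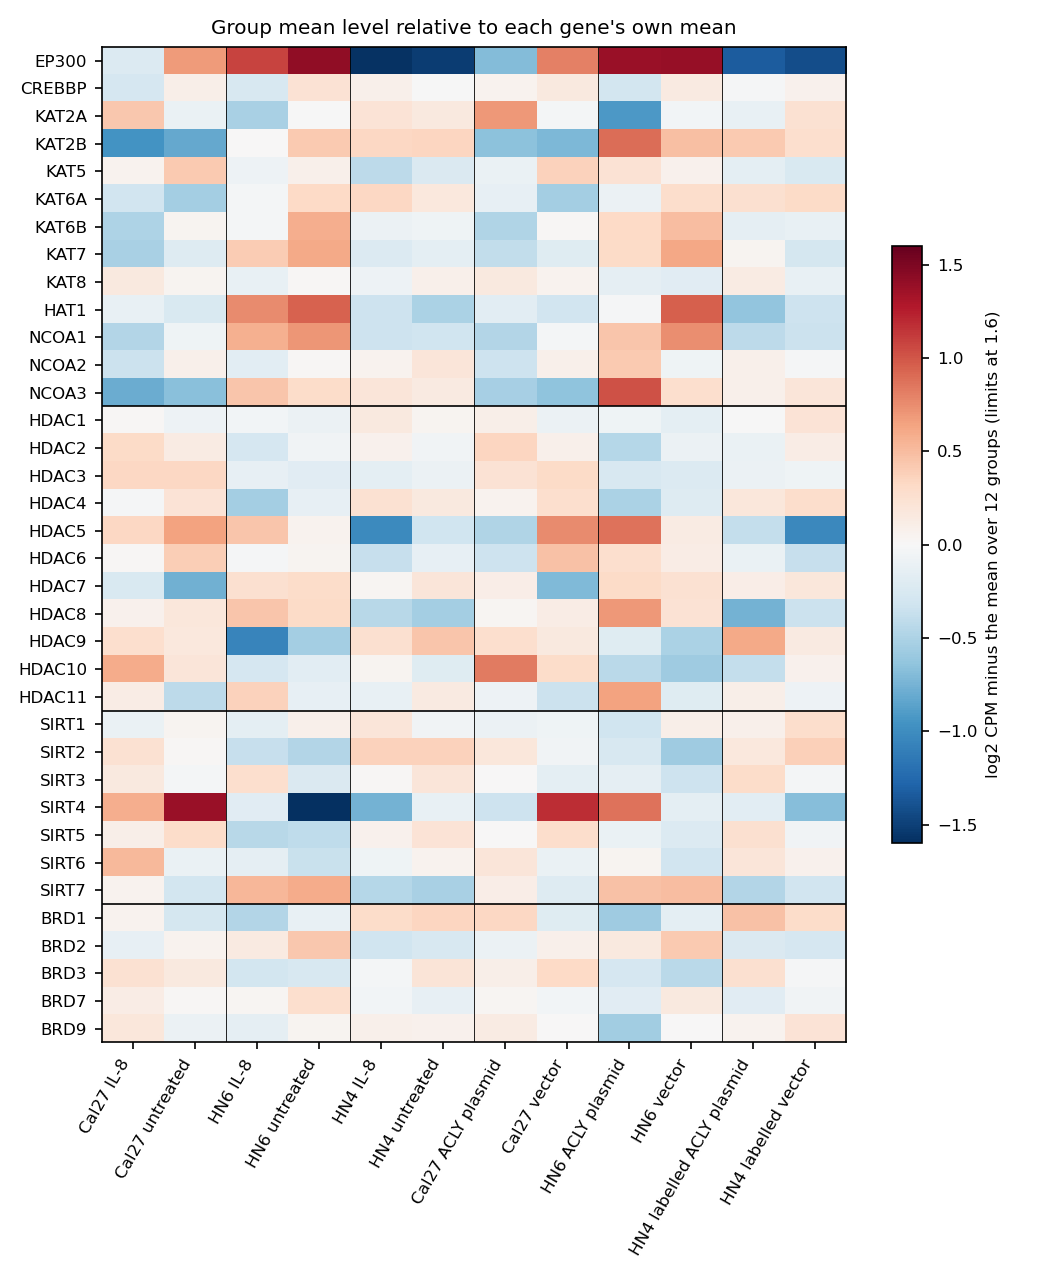
Log2 of the mean CPM of each gene in each group minus its mean over the 12 groups, red above and blue below, with colours limited at 1.6; treated groups stand left of their controls and lines divide writers, classical deacetylases, sirtuins and readers. EP300 is blue in all 4 HN4 groups, KAT2B and NCOA3 in all 4 Cal27 groups, and SIRT4 is reddest in untreated and vector Cal27.

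The calls with IL-8 depended on single libraries. Without Cal27 IL-8 replicate 3, the library with few mitochondrially encoded counts, 9 members were called in HN4 (30.3% of all genes), 20 in HN6 (32.7%) and 15 in Cal27 (41.7%), and 11 of the 16 calls in Cal27 remained. Without HN4 labelled ACLY plasmid replicate 3, 16 members were called in HN4 (37.4% of all genes), 24 in HN6 (53.5%) and 28 in Cal27 (64.6%). In HN6 with IL-8, leaving out IL-8 replicate 1, IL-8 replicate 2 or untreated replicate 2 left 5, 5 and 4 members called. Without untreated replicate 2 of Cal27, 9 members were called there with IL-8, and a fit to the 6 Cal27 libraries alone called 3, EP300, KAT2A and HDAC7. With no scaling beyond the library total, 4 members rose and 5 fell in HN6 with IL-8, and of all genes called there 64.4% were higher, where the scaling used here gave 49.3%. The same change gave 13 higher and 12 lower members in HN6 with the plasmid, 6 and 15 in Cal27 with the plasmid, and 9 and 13 in untreated HN6 against HN4.

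Among the writers, EP300, the p300 acetyltransferase and a coactivator at enhancers, differed most between lines. It had 105, 109.8 and 103 CPM in untreated Cal27 and 177, 184 and 168 CPM in untreated HN6, against 20.6, 24.6 and 23.9 CPM in untreated HN4. HN4 thus stood far below both other lines, with log2 difference 2.93 ± 0.13, adjusted p = 1.97e-12 for HN6 against HN4, log2 difference 2.22 ± 0.13, adjusted p = 6.79e-11 for Cal27 against HN4, and -0.70 ± 0.12 for Cal27 against HN6. EP300 fell in Cal27 with either treatment. With IL-8 it had 65.4, 64.8 and 40.01 CPM in treated Cal27 and 105, 109.8 and 103 CPM in untreated Cal27 (log2 difference -0.92 ± 0.13, adjusted p = 2.15e-05), where replicate 3 was the lowest. Without it the log2 difference was -0.73 (adjusted p = 3.1e-12). With the plasmid it had 41.3, 39.1 and 41.8 CPM in Cal27 with ACLY and 118, 113 and 116 CPM in Cal27 with vector (log2 difference -1.52 ± 0.069, adjusted p = 1.29e-19). Both Cal27 falls went towards the level of HN4. In HN6 it missed the threshold with IL-8 (log2 difference -0.32 ± 0.12, adjusted p = 0.0895); without Cal27 IL-8 replicate 3 the value was -0.32 (adjusted p = 5.41e-06). In HN4 with IL-8 it had 22.1, 23.2 and 21.1 CPM and was not called.

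EP300 lies at chr22:41091786-41180079 (hg38), and of the 10 nearest tested genes, 5 on each side, 1, TEF, a transcription factor gene of the PAR bZIP family at chr22:41367333-41399326, was also called higher in both HN6 and Cal27 than in HN4. TEF averaged 16.5 CPM in untreated Cal27 and 46.4 CPM in untreated HN6, against 4.89 CPM in untreated HN4, a log2 difference of 3.23 for HN6 and 1.77 for Cal27 against HN4 (adjusted p = 1.81e-14 and 5.45e-11). Between them, RANGAP1 and ZC3H7B were called higher in HN6 than in HN4 (0.92 and 0.46, adjusted p = 0.00122 and 0.000106). Neither was called in Cal27 against HN4 (-0.47 and -0.16). MRTFA, SLC25A17 and RBX1 were also called higher in HN6 than in HN4 (adjusted p = 0.000941, 8.29e-06 and 0.0261), where 32.4% of all genes were. In that contrast CHADL was called lower, and ST13, XPNPEP3 and L3MBTL2 were not called. SLC25A17 and RBX1, on the other side, had the same order of the 3 line means but were not called in Cal27 against HN4 (adjusted p = 0.279 and 0.148). TEF was picked out after its values were seen.

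**Figure D3:**
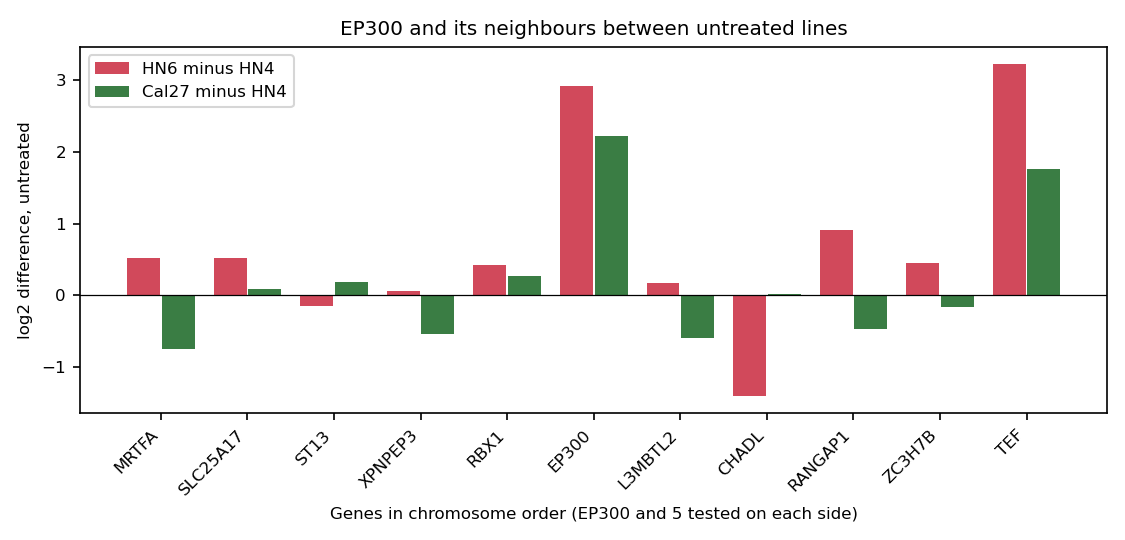
Log2 differences of untreated HN6 and untreated Cal27 from untreated HN4 (bars) for EP300 and the 5 tested genes on each side, in order along chromosome 22. EP300 and TEF have the tallest bars in both lines, and the other genes lie between -1.41 and 0.92.

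CREBBP, the paralog of EP300, was called between no untreated lines and, among the treatment comparisons, in HN6 alone. It fell there, at 74.1, 74.2 and 67.4 CPM with IL-8 and 104, 103 and 94.96 CPM untreated (log2 difference -0.47 ± 0.16, adjusted p = 0.0476), a call lost under 8 of 14 other settings. Without Cal27 IL-8 replicate 3 the value in HN6 was -0.47 (adjusted p = 1.33e-08). With the plasmid it had 71.5, 70.8 and 68.03 CPM in HN6 with ACLY and 96.2, 97.4 and 90.8 CPM in HN6 with vector (log2 difference -0.43 ± 0.068, adjusted p = 1.57e-06). In Cal27 with IL-8 its 3 libraries ran from 43.8 to 86.4 CPM, and it was not called there.

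KAT2A, or GCN5, the catalytic subunit of the SAGA and ATAC complexes, moved in opposite directions in HN6 and Cal27. In HN6 it fell with IL-8, at 52.9, 53.1 and 50.95 CPM treated and 76.4, 70.5 and 75.4 CPM untreated (log2 difference -0.49 ± 0.080, adjusted p = 0.000444), and with the plasmid, at 38.7, 41.8 and 37.5 CPM with ACLY and 69.3, 69.9 and 78.5 CPM with vector (log2 difference -0.88 ± 0.064, adjusted p = 6.02e-14). In Cal27 it rose with IL-8, at 94.5, 97.04 and 111 CPM treated and 74.5, 64.95 and 67.9 CPM untreated (log2 difference 0.53 ± 0.079, adjusted p = 5.15e-05), and with the plasmid, at 123, 117 and 121 CPM with ACLY and 72.6, 70.5 and 76.8 CPM with vector (log2 difference 0.70 ± 0.060, adjusted p = 2.36e-12). The response of Cal27 minus that of HN6 was called too, as 2 opposite calls make likely, at adjusted p = 2.62e-06 for IL-8 and 2.21e-17 for the plasmid. Its levels in treated Cal27 also lay above all 18 libraries of control Cal27 and of HN4, which reached 89.3 CPM at most. In the HN4 libraries labelled ACLY plasmid it had 65.4, 69.1 and 71.9 CPM, against 89.3, 87.5 and 89.1 CPM in those labelled vector (log2 difference -0.36 ± 0.061, adjusted p = 1.31e-05). Untreated Cal27 stood slightly below untreated HN4 (-0.25 ± 0.079).

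KAT2A and the reader BRD1 were the 2 genes with opposite calls in HN6 and Cal27 under both treatments for which RefSeq gives a promoter here; KAT6A was the other gene of that pattern. The 250 bases ahead of each start (RefSeq, GRCh38.p14) are given in the direction of transcription, with the GC box GGGCGG in capitals. KAT2A lies at chr17:42121368-42121617 and BRD1 at chr22:49827874-49828123, both on the minus strand.
KAT2A: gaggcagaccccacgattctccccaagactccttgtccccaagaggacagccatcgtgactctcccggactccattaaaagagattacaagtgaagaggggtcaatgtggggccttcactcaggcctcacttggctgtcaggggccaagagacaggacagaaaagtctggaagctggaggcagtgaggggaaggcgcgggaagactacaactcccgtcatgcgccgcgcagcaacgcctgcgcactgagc
BRD1: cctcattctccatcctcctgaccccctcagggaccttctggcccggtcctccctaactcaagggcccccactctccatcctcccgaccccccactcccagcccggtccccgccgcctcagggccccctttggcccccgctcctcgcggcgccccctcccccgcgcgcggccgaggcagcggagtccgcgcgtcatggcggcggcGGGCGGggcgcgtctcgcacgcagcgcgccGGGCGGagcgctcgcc
The BRD1 window holds 2 GC boxes and the KAT2A window none. Read on both strands, GGGCGG occurs in 42.6% of 35116 such windows of all genes and in 30 of 55 windows of the members (54.5%). Neither of the printed windows holds the E-box CACGTG (6.34% of all windows), the CCAAT box (32% of all windows), the cAMP response element TGACGTCA (1.65%) or the AP-1 site TGANTCA (6.57%). The 55 windows belong to 31 of the 36 members; KAT6A, KAT8, NCOA2, HDAC5 and SIRT7 were not matched. A match of letters is a description and no sign of binding.

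KAT6A and KAT6B encode the MOZ and MORF enzymes, which work in complexes with BRPF proteins. KAT6A had 42.2, 45.9 and 43.7 CPM in untreated Cal27, against 78.9, 84.7 and 76 CPM in untreated HN6 and 74.3, 76.1 and 66.5 CPM in untreated HN4, and Cal27 was the lowest line (-0.83 ± 0.085 against HN6, -0.70 ± 0.085 against HN4). In Cal27 with the plasmid it rose, with 60.4, 54.7 and 60.4 CPM with ACLY and 42.6, 47.6 and 41.8 CPM with vector (log2 difference 0.40 ± 0.077, adjusted p = 3.37e-05). With IL-8 in Cal27 it rose by 0.22 ± 0.085 with overlapping groups, a call lost under 11 of 13 other settings. In HN6 it fell with IL-8 (-0.34 ± 0.084) and with the plasmid (-0.37 ± 0.075). KAT6B fell with IL-8 in HN6 and Cal27: it had 25.6, 26.02 and 25.9 CPM in treated HN6 and 37.1, 43.1 and 38.3 CPM in untreated HN6 (log2 difference -0.60 ± 0.16, adjusted p = 0.0168), and 22.8, 22.1 and 11.2 CPM in treated Cal27 and 25.4, 29.2 and 27.2 CPM in untreated Cal27 (log2 difference -0.55 ± 0.16, adjusted p = 0.0132), where replicate 3 was again the lowest. Without it the log2 difference was -0.30 (adjusted p = 0.00485). With the plasmid it fell in Cal27, at 18.5, 18.5 and 20.1 CPM with ACLY and 26.03, 28.1 and 26.1 CPM with vector (log2 difference -0.50 ± 0.091, adjusted p = 1.26e-05). Among untreated lines KAT6B was highest in HN6, by 0.64 ± 0.16 over HN4, while Cal27 stood -0.51 ± 0.16 from HN6.

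KAT7, or HBO1, which acetylates histones at replication origins and gene starts, was highest in HN6: it had 72.3, 77.8 and 70.8 CPM in untreated HN6, against 41.8, 45.9 and 42 CPM in untreated HN4 (log2 difference 0.76 ± 0.10, adjusted p = 2e-06), and Cal27 stood -0.79 ± 0.10 from HN6. In the HN4 libraries labelled ACLY plasmid it had 50.9, 51.8 and 47.3 CPM, against 38.3, 40.8 and 40.2 CPM in those labelled vector (log2 difference 0.34 ± 0.068, adjusted p = 0.000146). It fell with the plasmid in HN6 (-0.31 ± 0.064) and Cal27 (-0.22 ± 0.068) and with IL-8 in Cal27 (-0.33 ± 0.10). In treated Cal27 its level lay below all 18 libraries of control Cal27 and of HN4, whose lowest was 38.3 CPM. KAT8, or MOF, the enzyme of the MSL and NSL complexes, was called once, in the HN4 libraries labelled ACLY plasmid against those labelled vector (0.26 ± 0.078).

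KAT5, or TIP60, the enzyme of the NuA4 complex, was highest in Cal27. Untreated Cal27 had 27.1, 23.9 and 23.6 CPM, against 14.6, 16.5 and 16.4 CPM in untreated HN4 (log2 difference 0.67 ± 0.092, adjusted p = 5.05e-06); Cal27 also exceeded HN6 (0.37 ± 0.091), and HN6 exceeded HN4 (0.30 ± 0.093). It fell in Cal27 with IL-8, at 21.1, 19.2 and 17.5 CPM treated (log2 difference -0.38 ± 0.091, adjusted p = 0.0036), and with the plasmid, at 19.2, 15.2 and 17.2 CPM with ACLY and 23.1, 24.3 and 24.4 CPM with vector (log2 difference -0.49 ± 0.10, adjusted p = 5.65e-05). KAT2B, or PCAF, the paralog of KAT2A, was lowest in Cal27: 4.36, 3.84 and 4.66 CPM untreated, against 10.4, 10.5 and 9.39 CPM in untreated HN6 (log2 difference -1.20 ± 0.18, adjusted p = 1.13e-05) and 10.04, 9.91 and 8.78 CPM in untreated HN4 (log2 difference -1.14 ± 0.18, adjusted p = 2.27e-05). In HN6 it rose with the plasmid, at 13.3, 14.3 and 14.4 CPM with ACLY and 12.1, 8.89 and 10.7 CPM with vector (log2 difference 0.41 ± 0.14, adjusted p = 0.0112), opposite to its paralog there.

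HAT1, which acetylates new histone H4 before its assembly into chromatin, was highest in HN6. It had 114, 132 and 124 CPM in untreated Cal27 (-1.16 ± 0.068 against HN6, 0.29 ± 0.067 against HN4) and 270, 301 and 271 CPM in untreated HN6, against 99.98, 106 and 102 CPM in untreated HN4 (log2 difference 1.44 ± 0.068, adjusted p = 2.81e-12 for HN6). HAT1 was the member with the lowest log2 difference among those called in HN6 with the plasmid: 139, 146 and 148 CPM with ACLY, against 289, 272 and 286 CPM with vector (log2 difference -0.96 ± 0.062, adjusted p = 3.06e-15), a fold of 0.513. In HN4 it had 86.7, 91.4 and 105 CPM in libraries labelled ACLY plasmid and 118, 114 and 116 CPM in those labelled vector (log2 difference -0.30 ± 0.064, adjusted p = 0.000344).

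NCOA1, NCOA2 and NCOA3 are the p160 coactivators of nuclear receptors, in which acetyltransferase activity has been described. In HN6 with the plasmid they split. NCOA3 rose, at 213, 214 and 206 CPM with ACLY and 129, 121 and 127 CPM with vector (log2 difference 0.75 ± 0.062, adjusted p = 1.62e-12). NCOA2 rose too, at 59.8, 59.3 and 58.8 CPM with ACLY and 44.4, 41.3 and 41.8 CPM with vector (log2 difference 0.48 ± 0.068, adjusted p = 2.58e-07), and NCOA1 fell (-0.30 ± 0.10). In Cal27 NCOA2 fell with the plasmid (-0.43 ± 0.070) and with IL-8, at 41.9, 42.01 and 20.8 CPM treated and 43.3, 48.98 and 48.9 CPM untreated (log2 difference -0.44 ± 0.17, adjusted p = 0.0489); without IL-8 replicate 3 that value was -0.19 (adjusted p = 0.0691). NCOA1 fell in Cal27 with the plasmid (-0.45 ± 0.10) and with IL-8, at 24.9, 26.2 and 19.3 CPM treated and 29.8, 33.4 and 29.4 CPM untreated (log2 difference -0.41 ± 0.10, adjusted p = 0.0048). Among untreated lines, NCOA1 was highest in HN6, at 52.1, 56.2 and 50.8 CPM, against 25.1, 28.2 and 24.3 CPM in HN4 (log2 difference 1.02 ± 0.10, adjusted p = 7.89e-08); Cal27 stood -0.75 ± 0.10 from HN6 and 0.27 ± 0.10 from HN4. NCOA3 was lowest in Cal27, at 60.8, 71.2 and 64.9 CPM, against 118, 139 and 124 CPM in HN6 (log2 difference -0.92 ± 0.15, adjusted p = 2.08e-05) and 114, 117 and 115 CPM in HN4 (log2 difference -0.79 ± 0.15, adjusted p = 0.000116).

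Over the 13 writers, 6 were higher and 0 lower in untreated HN6 than in HN4, where 32.4% of all genes were higher and 34.7% lower. In Cal27 against HN4, 4 were higher and 4 lower (32.2% and 31.4% of all genes). In Cal27 against HN6, 1 was higher and 8 lower (35.3% and 33.1%). With IL-8, 0 rose and 4 fell in HN6 (7.61% and 7.81% of all genes). Without Cal27 IL-8 replicate 3, EP300, KAT2B, KAT7 and HAT1 were also called lower there (-0.32, -0.40, -0.19 and -0.18). NCOA3 was called higher in that fit (0.16), where 32.7% of all genes were called in HN6. In Cal27 2 rose and 6 fell (22.7% and 16.7%). With the plasmid, 3 rose and 6 fell in HN6 (26.8% and 24.9% of all genes). In Cal27 2 rose and 6 fell (34.2% and 29.0%).

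**Figure D4:**
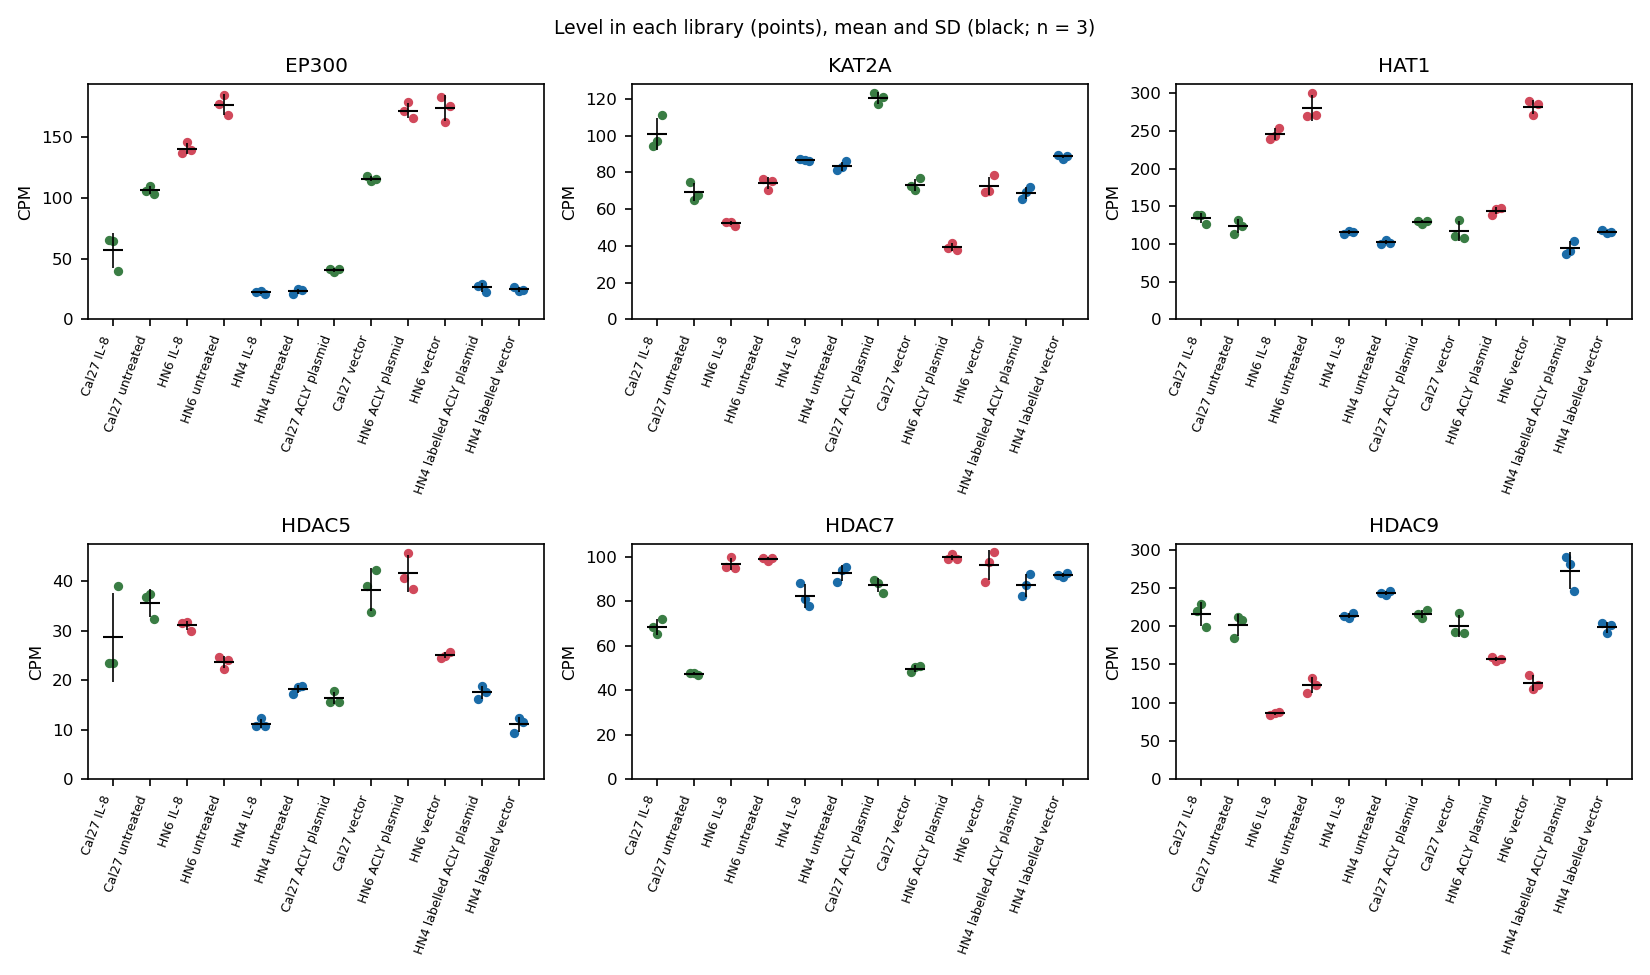
CPM in each of the 3 libraries per group (points), with the mean and SD (black), for 6 members, with each treated group left of its control. EP300 is lowest in the 4 HN4 groups, KAT2A lies below its control in HN6 and above it in Cal27 with either treatment, and HAT1 in HN6 with the ACLY plasmid lies below HN6 with vector.

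Among the classical erasers, HDAC5, a class IIa deacetylase that shuttles between cytoplasm and nucleus, was called in 4 of the 6 treatment comparisons. With all libraries in the fit it was the only member called in HN4 with IL-8. Without Cal27 IL-8 replicate 3, KAT6A, HAT1, HDAC1 and SIRT1 were also called higher there (0.16, 0.18, 0.12 and 0.25). HDAC6, HDAC7, HDAC9 and BRD3 were called lower (-0.23, -0.17, -0.19 and -0.24), in a fit that called 30.3% of all genes. HDAC5 had 10.7, 12.3 and 10.7 CPM in HN4 with IL-8 and 17.2, 18.7 and 18.7 CPM in untreated HN4 (log2 difference -0.69 ± 0.16, adjusted p = 0.008). The libraries labelled ACLY plasmid in HN4 had 16.1, 18.9 and 17.6 CPM, against 9.37, 12.4 and 11.5 CPM in those labelled vector (log2 difference 0.66 ± 0.11, adjusted p = 8.19e-06). With the plasmid, HDAC5 rose in HN6, at 40.6, 45.6 and 38.5 CPM with ACLY and 24.4, 24.9 and 25.7 CPM with vector (log2 difference 0.73 ± 0.094, adjusted p = 3.71e-08), and fell in Cal27, at 15.6, 17.8 and 15.7 CPM with ACLY and 38.95, 33.7 and 42.2 CPM with vector (log2 difference -1.24 ± 0.10, adjusted p = 3.18e-13). The difference between these 2 responses was called (adjusted p = 8.08e-15). In Cal27 with IL-8 it was not called (log2 difference -0.32 ± 0.15, adjusted p = 0.101), with libraries of 23.5, 23.5 and 39.1 CPM. Without replicate 3, the highest of them, the value was -0.62 (adjusted p = 2.54e-07). In HN6 with IL-8 HDAC5 was not called (log2 difference 0.40), but without Cal27 IL-8 replicate 3 it was called higher there (0.40, adjusted p = 7.72e-05). Untreated Cal27 had 36.8, 37.4 and 32.3 CPM and untreated HN6 24.7, 22.3 and 24.03 CPM, and Cal27 stood above HN4 (log2 difference 0.98 ± 0.15, adjusted p = 2.02e-05) and HN6 (0.62 ± 0.15), and HN6 above HN4 (0.37 ± 0.16). The call of HN6 against HN4 was lost under 7 of 14 other settings.

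The other class IIa genes moved separately. HDAC7 rose in Cal27 with IL-8, at 68.3, 65.1 and 72.1 CPM treated and 47.9, 47.6 and 46.7 CPM untreated (log2 difference 0.52 ± 0.070, adjusted p = 1.96e-05), and with the plasmid, at 89.6, 88.4 and 83.6 CPM with ACLY and 47.99, 50.3 and 50.8 CPM with vector (log2 difference 0.80 ± 0.060, adjusted p = 1.05e-13). Untreated Cal27 was the lowest line for HDAC7, against 99.6, 98.2 and 99.4 CPM in untreated HN6 (-1.04 ± 0.070) and 88.5, 94.1 and 95.5 CPM in untreated HN4 (-0.95 ± 0.070), so both rises went towards the other lines. HDAC9 moved in opposite directions in HN6: it fell with IL-8, at 83.98, 86.5 and 87.9 CPM treated and 112, 133 and 123 CPM untreated (log2 difference -0.50 ± 0.072, adjusted p = 0.000169), and rose with the plasmid (0.32 ± 0.061). In HN4 it had 291, 282 and 246 CPM in libraries labelled ACLY plasmid and 204, 191 and 202 CPM in those labelled vector (log2 difference 0.46 ± 0.059, adjusted p = 1.12e-07). Among untreated lines HDAC9 was lowest in HN6, against 244, 241 and 246 CPM in HN4 (-1.003 ± 0.072), and Cal27, at 185, 212 and 208 CPM, exceeded HN6 (0.75 ± 0.072) and stood -0.26 ± 0.071 from HN4. HDAC4 fell in HN6 with IL-8, at 12.7, 11.5 and 13.6 CPM treated and 14.3, 17.3 and 18.5 CPM untreated (log2 difference -0.40 ± 0.13, adjusted p = 0.0454), a call lost under 8 of 14 other settings, and with the plasmid in HN6 (-0.30 ± 0.11) and Cal27 (-0.22 ± 0.10). The Cal27 call was lost under 8 of 14 other settings. In HN6 with IL-8 the HDAC4 value without Cal27 IL-8 replicate 3 was -0.40 (adjusted p = 0.00232). Between lines it was lower in HN6 than in HN4 (-0.30 ± 0.13), with overlapping groups and a call lost under 8 of 14 other settings, and higher in Cal27 than in HN6 (0.39 ± 0.13).

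Of the class I enzymes, HDAC1 and HDAC2 are paired in the SIN3, NuRD and CoREST complexes. Their largest treatment differences were 0.22 and 0.36 in absolute log2. In HN4 HDAC1 had 245, 245 and 253 CPM in libraries labelled ACLY plasmid and 290.3, 290.2 and 287 CPM in those labelled vector (log2 difference -0.22 ± 0.051, adjusted p = 0.000802), and HDAC2 had 153, 148 and 147 CPM and 178, 178 and 168 CPM in the same groups (log2 difference -0.22 ± 0.054, adjusted p = 0.00146). With the plasmid in Cal27 both rose, HDAC1 by 0.18 ± 0.051 and HDAC2 by 0.25 ± 0.054, while HDAC2 fell in HN6 (-0.36 ± 0.055). The Cal27 call of HDAC1 was lost under 3 of 14 other settings, RLE scaling, library-size scaling and DESeq2. The Cal27 and HN6 responses of HDAC2 differed (adjusted p = 1.54e-08). HDAC2 in Cal27 with the plasmid, at 201.7 to 208 CPM, lay above all 18 libraries of control Cal27 and of HN4. HDAC1 was lower in untreated HN6 than in HN4 (-0.15 ± 0.052). HDAC2 was higher in Cal27 than in HN4 (0.21 ± 0.071) and HN6 (0.21 ± 0.071), each time with overlapping groups. HDAC3, the enzyme of the NCoR and SMRT complexes, was called in no treatment comparison; untreated Cal27 had 100.2, 109 and 98.4 CPM, against 76.3, 68.98 and 71.3 CPM in untreated HN6 (log2 difference 0.53 ± 0.075, adjusted p = 5.96e-06), and exceeded HN4 by 0.44 ± 0.075. HDAC8 had 11.7, 12.7 and 14.5 CPM in untreated Cal27 (0.75 ± 0.15 against HN4) and 13.6, 15.01 and 13.8 CPM in untreated HN6 (0.84 ± 0.15 against HN4), and was lowest in untreated HN4, with 6.27, 7.71 and 9.54 CPM. It rose in HN6 with the plasmid, at 17.02, 18.6 and 19.8 CPM with ACLY and 13.4, 13.1 and 14.02 CPM with vector (log2 difference 0.46 ± 0.11, adjusted p = 0.00061), and in HN4 had 6.11, 7.29 and 6.83 CPM in libraries labelled ACLY plasmid and 8.48, 8.40 and 10.2 CPM in those labelled vector (log2 difference -0.42 ± 0.13, adjusted p = 0.00783).

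HDAC6, the class IIb enzyme that deacetylates tubulin, was highest in Cal27 and fell there. Untreated Cal27 had 35.5, 38.2 and 34.98 CPM, against 25.8, 25.1 and 25.01 CPM in untreated HN4 (log2 difference 0.54 ± 0.11, adjusted p = 0.000234), and exceeded HN6 by 0.37 ± 0.11. With the plasmid it had 21.6, 21.9 and 22.7 CPM in Cal27 with ACLY and 38.6, 36.3 and 40.03 CPM in Cal27 with vector (log2 difference -0.81 ± 0.080, adjusted p = 7.7e-11), and IL-8 gave -0.38 ± 0.11. In HN4 it had 28.7, 22.8 and 25.8 CPM in libraries labelled ACLY plasmid and 21.7, 20.8 and 21.7 CPM in those labelled vector (log2 difference 0.27 ± 0.083, adjusted p = 0.00832). HDAC11, the class IV enzyme, rose in HN6 with the plasmid, at 19.1, 19.9 and 19.3 CPM with ACLY and 11.1, 12.2 and 9.52 CPM with vector (log2 difference 0.83 ± 0.12, adjusted p = 3.78e-07), the member with the highest log2 difference among those called there. In Cal27 with IL-8 it had 11.9, 9.88 and 18.8 CPM treated and 9.62, 8.57 and 9.86 CPM untreated (log2 difference 0.52 ± 0.18, adjusted p = 0.0267), and without replicate 3 the value was 0.19 (adjusted p = 0.205). Untreated Cal27 was below untreated HN4, which had 13.9, 13.7 and 13.8 CPM (-0.55 ± 0.18). HDAC10, at most 71 reads in a library, was called in no comparison. Over the 11 classical deacetylases, 0 rose and 2 fell in HN6 with IL-8 (7.61% and 7.81% of all genes). Without Cal27 IL-8 replicate 3, HDAC5 and HDAC11 were also called there, both higher (0.40 and 0.51), and HDAC2 was called lower (-0.21). In that fit 32.7% of all genes were called in HN6. In Cal27 2 rose and 1 fell with IL-8 (22.7% and 16.7%). With the plasmid 4 rose and 2 fell in HN6 (26.8% and 24.9% of all genes), and 3 rose and 3 fell in Cal27 (34.2% and 29.0%). Between lines, 2 were higher and 3 lower in HN6 than in HN4 (32.4% and 34.7% of all genes), 5 and 3 in Cal27 than in HN4 (32.2% and 31.4%), and 6 and 1 in Cal27 than in HN6 (35.3% and 33.1%).

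**Figure D5:**
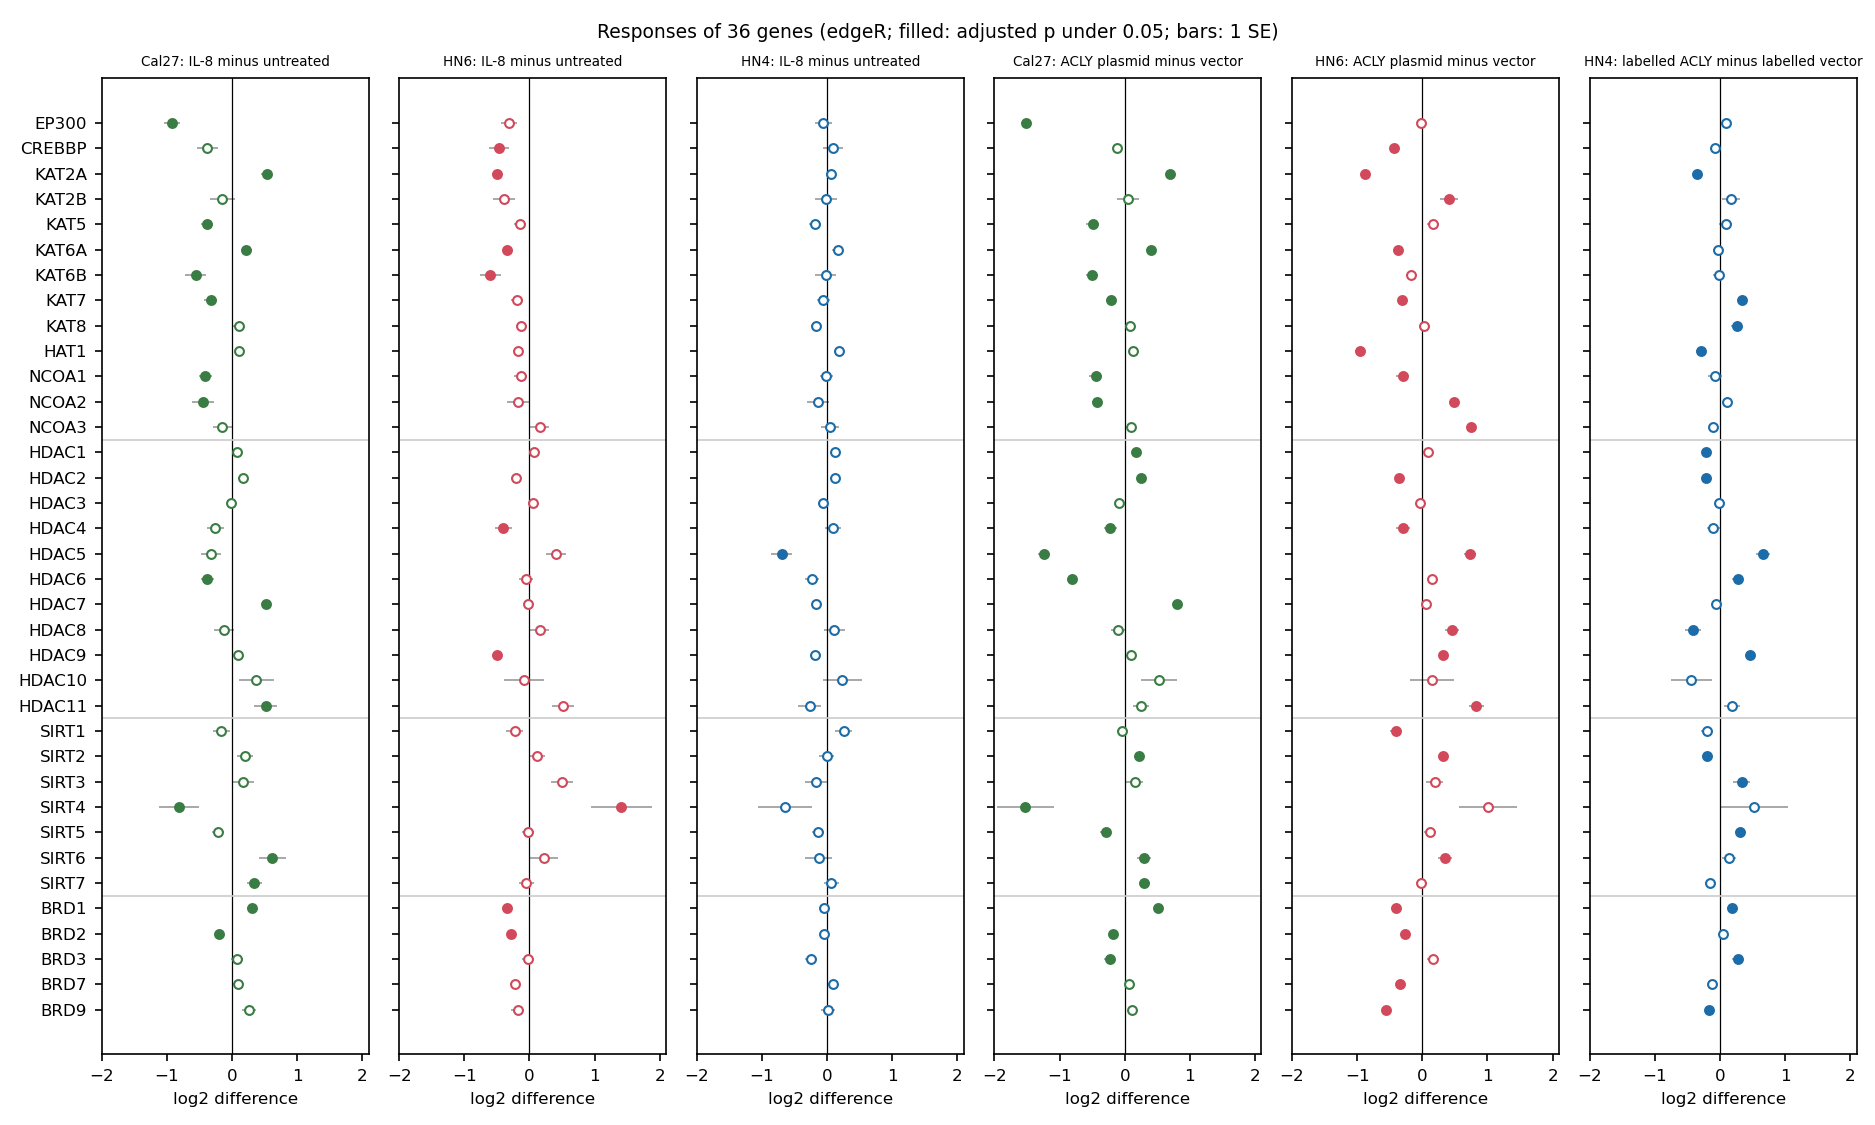
Log2 differences of the 36 genes, treated minus control, in Cal27, HN6 and HN4 for IL-8 and for the ACLY plasmid (labelled plasmid minus labelled vector in HN4), with bars of 1 SE and filled points for an adjusted p under 0.05 by edgeR. KAT2A, KAT6A and BRD1 lie below 0 in HN6 and above 0 in Cal27 in both experiments.

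Among the sirtuins, SIRT4, a mitochondrial sirtuin, had 2.13, 1.31 and 1.54 CPM in untreated Cal27, against 0.283, 0.171 and 0.177 CPM in untreated HN6 and 0.663, 0.507 and 0.582 CPM in untreated HN4. Cal27 exceeded HN6 (log2 difference 2.96 ± 0.39, adjusted p = 2.81e-06) and HN4 (log2 difference 1.51 ± 0.33, adjusted p = 0.000545), and HN6 was below HN4 (-1.46 ± 0.46). It fell in Cal27 with the plasmid, at 0.802, 0.251 and 0.456 CPM with ACLY and 1.59, 0.847 and 1.87 CPM with vector (log2 difference -1.52 ± 0.43, adjusted p = 0.00262), and with IL-8, at 0.983, 1.03 and 0.832 CPM treated (log2 difference -0.81 ± 0.30, adjusted p = 0.0418), a call lost under 9 of 13 other settings. Without IL-8 replicate 3 the value was -0.74 (adjusted p = 0.11). In HN6 it rose with IL-8, at 0.649, 0.806 and 0.232 CPM treated, where the groups overlapped (log2 difference 1.41 ± 0.46, adjusted p = 0.0478) and the call was lost under 9 of 13 other settings. At these levels a library holds few reads of SIRT4, and its values are imprecise.

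SIRT7, a nucleolar sirtuin that removes acetyl groups from histone H3, had 35.2, 32.95 and 31.1 CPM in untreated Cal27 (-0.86 ± 0.12 against HN6) and 62.01, 58.99 and 62.3 CPM in untreated HN6, against 29.5, 27.1 and 28.5 CPM in untreated HN4 (log2 difference 1.10 ± 0.12, adjusted p = 2.16e-07 for HN6). In Cal27 it rose with the plasmid, at 46.2, 44.8 and 40.2 CPM with ACLY and 35.03, 32.6 and 38.1 CPM with vector (log2 difference 0.30 ± 0.084, adjusted p = 0.00235). With IL-8 in Cal27 it had 39.2, 35.3 and 52.6 CPM treated (log2 difference 0.35 ± 0.12, adjusted p = 0.0273), and without replicate 3 the value was 0.15 (adjusted p = 0.119). SIRT6, the sirtuin that acts on histone H3 at telomeres and in DNA repair, behaved alike in Cal27: 30.3, 29.9 and 60.7 CPM with IL-8 and 31.5, 23.3 and 23.3 CPM untreated, overlapping groups (log2 difference 0.62 ± 0.21, adjusted p = 0.0255), which became 0.19 without replicate 3 (adjusted p = 0.155). With the plasmid SIRT6 rose in Cal27, at 34.1, 33.5 and 29.1 CPM with ACLY and 26.6, 23.8 and 27.9 CPM with vector (log2 difference 0.29 ± 0.11, adjusted p = 0.0193), a call lost under 7 of 14 other settings, and in HN6 (0.35 ± 0.11). The calls of SIRT7 and SIRT6 in Cal27 with IL-8 were each lost under 5 of 13 other settings, among them without IL-8 replicate 3, without untreated replicate 2 and without untreated replicate 3.

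SIRT2, a mainly cytoplasmic sirtuin, had 44.4, 41.4 and 39.2 CPM in untreated Cal27, above HN6 (0.52 ± 0.12) and -0.33 ± 0.12 from HN4. It was lowest in HN6, at 30.6, 29.4 and 28.8 CPM untreated, against 54.3, 51.9 and 52.7 CPM in HN4 (log2 difference -0.85 ± 0.12, adjusted p = 6.96e-06). It rose with the plasmid in HN6 (0.31 ± 0.074) and Cal27 (0.22 ± 0.070). SIRT5, a mitochondrial sirtuin that removes succinyl and malonyl groups, had 26.3, 25.6 and 26.01 CPM in untreated Cal27 (0.74 ± 0.092 against HN6), and was also lowest in HN6, at 16.6, 14.2 and 16.8 CPM, against 24.6, 22.9 and 26 CPM in HN4 (-0.64 ± 0.092). It fell in Cal27 with the plasmid (-0.29 ± 0.086). SIRT3, the main mitochondrial deacetylase, was lower in HN6 than in HN4 (-0.43 ± 0.17). SIRT1, which deacetylates histones and p53, fell in HN6 with the plasmid, at 19.3, 21.6 and 20.96 CPM with ACLY and 29.8, 25.4 and 26.9 CPM with vector (log2 difference -0.41 ± 0.088, adjusted p = 0.000196). In HN4, libraries labelled ACLY plasmid had 45.4, 48.8 and 43.3 CPM of SIRT2, against 53.9, 53.8 and 51.6 CPM in those labelled vector (-0.21 ± 0.069). For SIRT5 they had 27.7, 24.3 and 23.6 CPM, against 19.6, 20.6 and 20.8 CPM (0.31 ± 0.087). For SIRT3 they had 19.6, 18.7 and 30.3 CPM, against 20.3, 18.4 and 16.2 CPM (0.33 ± 0.13). The SIRT3 groups overlapped, and without replicate 3 labelled ACLY plasmid the calls of SIRT2 and SIRT3 were lost (adjusted p = 0.0567 and 0.661). Over the 7 sirtuins, 1 rose and 0 fell in HN6 with IL-8 (7.61% and 7.81% of all genes). Without Cal27 IL-8 replicate 3, SIRT3 was also called higher there (0.50, adjusted p = 1.24e-05), in a fit that called 32.7% of all genes. In Cal27 2 rose and 1 fell with IL-8 (22.7% and 16.7%). With the plasmid 2 rose and 1 fell in HN6 (26.8% and 24.9% of all genes), and 3 rose and 2 fell in Cal27 (34.2% and 29.0%).

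All 5 readers were called in at least 1 treatment comparison, as was every other member but HDAC3 and HDAC10. BRD1, which joins the KAT6A, KAT6B and KAT7 enzymes in complexes, had the same 4 directions as KAT2A. In HN6 it fell with IL-8, at 25.8, 29.4 and 30.1 CPM treated and 36.9, 37.3 and 35.1 CPM untreated (log2 difference -0.35 ± 0.079, adjusted p = 0.00572), and with the plasmid, at 25.6, 26.6 and 27.7 CPM with ACLY and 34.4, 34.3 and 37.5 CPM with vector (log2 difference -0.41 ± 0.077, adjusted p = 3.34e-05). In Cal27 it rose with IL-8, at 40.2, 42.8 and 39.7 CPM treated and 35.2, 32.5 and 30.1 CPM untreated (log2 difference 0.32 ± 0.078, adjusted p = 0.00404), and with the plasmid, at 51.7, 50.02 and 47.5 CPM with ACLY and 33.2, 36.97 and 33.3 CPM with vector (log2 difference 0.52 ± 0.074, adjusted p = 2.02e-07). The Cal27 and HN6 responses differed, at adjusted p = 0.000215 for IL-8 and 2.69e-09 for the plasmid. Untreated HN4 was the highest line, at 50.5, 48.2 and 51.4 CPM, above HN6 (-0.47 ± 0.077 for HN6 against HN4) and Cal27 (-0.60 ± 0.078 for Cal27 against HN4), so the Cal27 rises went towards HN4. In HN4 BRD1 was called between libraries labelled ACLY plasmid and those labelled vector (0.18 ± 0.072), with overlapping groups, a call lost under 9 of 13 other settings.

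BRD2, a BET protein that holds acetylated histone H4, was the most evenly moved reader. It fell in HN6 with IL-8 (-0.28 ± 0.059) and with the plasmid (-0.26 ± 0.054), and in Cal27 with IL-8 (-0.20 ± 0.060) and with the plasmid (-0.19 ± 0.054), 4 falls and no rise. It was highest in untreated HN6, by 0.69 ± 0.060 over HN4, and Cal27 stood 0.34 ± 0.060 above HN4 and -0.35 ± 0.059 from HN6. BRD3, its BET relative, had 23.8, 22.8 and 23.9 CPM in untreated HN6, against 32.6, 31.3 and 33.3 CPM in untreated HN4 (log2 difference -0.48 ± 0.091, adjusted p = 0.000161), and Cal27 exceeded HN6 (0.44 ± 0.091). BRD3 fell in Cal27 with the plasmid (-0.23 ± 0.085) and was higher in HN4 libraries labelled ACLY plasmid than in those labelled vector (0.27 ± 0.087). BRD7 and BRD9 are subunits of different SWI/SNF remodelling complexes. BRD9 fell in HN6 with the plasmid, at 56.5, 60.3 and 56.5 CPM with ACLY and 79.5, 87.7 and 89.2 CPM with vector (log2 difference -0.56 ± 0.060, adjusted p = 6.65e-10), as did BRD7 (-0.34 ± 0.053). BRD9 was lower in HN4 libraries labelled ACLY plasmid than in those labelled vector (-0.16 ± 0.058), a call lost under 7 of 13 other settings. BRD7 was higher in untreated HN6 than in HN4 (0.39 ± 0.075), and Cal27 stood -0.22 ± 0.075 from HN6. Of the 5 readers, 0 rose and 4 fell in HN6 with the plasmid (26.8% and 24.9% of all genes), and 0 rose and 2 fell there with IL-8 (7.61% and 7.81%). Without Cal27 IL-8 replicate 3, BRD7 and BRD9 were also called lower in HN6 with IL-8 (-0.22 and -0.18), beside 32.7% of all genes called.

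The members' responses differed among lines about as often as those of all genes. With IL-8, 12 of the 36 had a response that differed among the 3 lines, where 40.2% of all tested genes did, and with the plasmid 28 of 36, beside 70.9%. Since the HN4 plasmid labels go against ACLY, the Cal27 response minus the HN6 response was tested as well. It was called for 12 members with IL-8 (30.3% of all genes) and for 24 with the plasmid (61.9%). Opposite calls in the 2 lines were seen for KAT2A, KAT6A, BRD1 and SIRT4 with IL-8 and for KAT2A, KAT6A, BRD1, NCOA2, HDAC2 and HDAC5 with the plasmid. Each of these differences was called, but 2 opposite calls in the same fit nearly settle that outcome, so it adds little to them. The share of all genes with opposite calls is not given here.

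IL-8 and the ACLY plasmid, which share no libraries, called many of the same members. In Cal27, 15 members were called with both, 93.8% of those called with IL-8 and 68.2% of those called with the plasmid, and all 15 moved the same way. The same held for all genes: 6721 were called with both, 93.4% and 58% of the calls, and 100% moved the same way. In HN6, 7 members were called with both, 77.8% and 31.8% of the calls; 6 moved the same way and HDAC9 the opposite way, while 91.7% of 2203 genes called with both moved the same way. In HN4, HDAC5 was called in both and moved in opposite directions under the labels, as did all 2141 genes called in both. Of the members called in Cal27, 13 of 16 with IL-8 and 17 of 22 with the plasmid moved from Cal27 towards untreated HN4, with the Cal27 level taken from the controls of the other experiment. Of all genes called there, 88.6% with IL-8 and 86.5% with the plasmid did. Levels in treated Cal27 lay outside the range of the 6 control Cal27 and 12 HN4 libraries for 2 of the 16, KAT2A above and KAT7 below. With the plasmid they did for 6 of the 22: KAT2A, HDAC2 and SIRT7 above, and KAT6B, KAT7 and NCOA2 below. HDAC2 with IL-8, at 193.2 to 209.3 CPM against a highest of 187.1, also lay above the range but was not called. The share of all called genes outside this range is not given here, so these counts cannot be set against it.

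Over the 6 treatment comparisons, HDAC3 and HDAC10 were called in none, 6 members in 1, 12 in 2, 10 in 3, 4 in 4 and 2 in 5. The same spread over all genes is not given here, and 14.0% to 63.2% of all genes were called per comparison. These counts thus cannot be set against those of all genes, and are not read as a trait of the set. For 21 of the 36, the largest difference between untreated lines exceeded the largest treatment difference, beside 72.5% of all genes tested in both experiments. Between untreated lines, 29 were called between at least 1 pair of lines, beside 87.9% of all genes tested with IL-8. Reads of overlapping genes cannot be told apart here, since the strand setting is not given in the sources used here: 14 members overlap another gene of at least 1 CPM, among them SIRT3 with PSMD13, BRD9 with TRIP13, NCOA3 with SULF2, HAT1 with SLC25A12 and SIRT7 with MAFG.

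Among 33 further subunits of acetyltransferase complexes, partners of the writers, 11 fell and 0 rose in HN6 with IL-8, where 7.81% of all genes fell and 7.61% rose. JADE2, a scaffold of the KAT7 complex, fell to 92.8 ± 2.85 CPM with IL-8, against 179.9 ± 7.83 CPM untreated (log2 difference -0.94 ± 0.061, adjusted p = 2.93e-08), EPC1 of the NuA4 complex changed by -0.75 ± 0.14 and ING3, also of NuA4, by -0.53 ± 0.14. With the plasmid in HN6, 19 fell and 4 rose: ING5 changed by -0.96 ± 0.086, JADE1 by -0.84 ± 0.091 and KANSL2 by -0.78 ± 0.083, and ING4 rose by 1.18 ± 0.12, TADA3 by 0.24 ± 0.074 and KANSL1 by 0.21 ± 0.064. In Cal27 9 rose and 3 fell with IL-8, led by RUVBL1 (0.93 ± 0.15), MCRS1 (0.64 ± 0.15) and TADA3 (0.53 ± 0.18), and SUPT3H (-0.39 ± 0.13), KANSL1 (-0.28 ± 0.089) and TADA2A (-0.27 ± 0.10) lower. With the plasmid in Cal27, 15 rose and 6 fell, with BRPF1 (1.03 ± 0.082), RUVBL1 (1.03 ± 0.056) and TRRAP (0.80 ± 0.058) highest and SUPT3H (-0.85 ± 0.14), KANSL1 (-0.58 ± 0.068) and SGF29 (-0.44 ± 0.12) lowest. In HN4, 1 rose (JADE2, 0.44) and 2 fell (ING4, -0.58, and KANSL1, -0.30) with IL-8. Between the labelled HN4 groups 7 were higher (ING4, 0.64) and 6 lower (JADE2, -0.40). Between lines, 13 were higher and 7 lower in HN6 than in HN4, 8 and 13 in Cal27 than in HN4, and 9 and 16 in Cal27 than in HN6. The widest in each contrast were TADA2B (-1.55 for Cal27 against HN6), TRRAP (-1.35 for Cal27 against HN4) and SUPT20H (1.26 for HN6 against HN4).

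Of 33 further subunits of deacetylase complexes, 3 rose and 1 fell in HN6 with IL-8 (RCOR2 of the CoREST family, 0.81 ± 0.20, and MIER1, -0.28 ± 0.082) and 11 rose and 12 fell there with the plasmid (ARID4A, 0.67 ± 0.095, and GATAD2A, -0.62 ± 0.059). In Cal27, 11 rose and 5 fell with IL-8 (GPS2, 1.30 ± 0.32, and TBL1X, -0.85 ± 0.22) and 15 rose and 11 fell with the plasmid. RCOR2 there averaged 2.59 CPM with ACLY and 10.8 CPM with vector (log2 difference -2.08 ± 0.18, adjusted p = 1.68e-12), and TBL1X of the NCoR and SMRT complexes changed by -1.55 ± 0.25. In HN4, 3 rose and 1 fell with IL-8 (ING2, 0.50, and CORO2A, -0.30), and 5 were higher and 8 lower between the labelled groups (MTA3, 0.53, and BRMS1, -0.38). Between lines 15 were higher and 7 lower in HN6 than in HN4, 10 and 10 in Cal27 than in HN4, and 8 and 10 in Cal27 than in HN6. TBL1X had 6.59, 7.15 and 6.29 CPM in untreated Cal27 and 0 counts in each untreated HN6 library. RCOR2 was higher in Cal27 than in HN4 (2.56 ± 0.25) and in HN6 than in HN4 (2.22 ± 0.25), as was MTA2 of NuRD in HN6 (1.56 ± 0.091).

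Among 27 other readers of acetyl-lysine, 6 fell and 0 rose in HN6 with IL-8, led by PBRM1 (-0.52 ± 0.16), BPTF (-0.45 ± 0.11) and BAZ2B (-0.39 ± 0.12). With the plasmid in HN6, 14 fell and 8 rose: TRIM28 (-0.95 ± 0.063), ATAD2 (-0.69 ± 0.059) and BAZ1B (-0.55 ± 0.046) were lowest and MLLT3 (0.78 ± 0.14), BRWD1 (0.65 ± 0.070) and ZMYND8 (0.58 ± 0.065) highest. In Cal27, 10 fell and 6 rose with IL-8 (MLLT3, -0.83 ± 0.13, and MLLT1, 0.63 ± 0.17), and 11 fell and 10 rose with the plasmid (MLLT3, -1.29 ± 0.14, BRWD3, -1.17 ± 0.086, and ZMYND8, -1.01 ± 0.064, against BAZ1B, 0.82 ± 0.046). MLLT3, BAZ1B and ZMYND8 thus moved in opposite directions with the plasmid in the 2 lines. In HN4, 3 rose and 1 fell with IL-8 (BAZ1A, 0.37, and ZMYND8, -0.43), and 3 were higher and 14 lower between the labelled groups (BAZ2B, 0.50, and PHIP, -0.57). Between lines 13 were higher and 8 lower in HN6 than in HN4, 11 and 8 in Cal27 than in HN4, and 8 and 16 in Cal27 than in HN6. The widest difference was that of CECR2, which had 14, 15 and 16 reads in untreated Cal27, 3, 0 and 0 in untreated HN6 and 10, 5 and 6 in untreated HN4. It was called higher in Cal27 than in HN6 and lower in HN6 than in HN4. Among genes with more reads, examples were DPF1 (1.59) and TRIM33 (1.39) in HN6 against HN4, ZMYND11 (-1.30) in Cal27 against HN4 and BRWD1 (-1.41) in Cal27 against HN6. Values of the list reached 1.68 in HN6 against HN4 and -1.43 in Cal27 against HN6, beyond DPF1 and BRWD1 there. These 3 lists are to be read beside the shares of all genes called in each comparison given above. Of the 445 calls of the 3 lists, 19 had overlapping groups, 7 of them with IL-8 in Cal27, among these TADA2A.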

How the data were processed

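Read counts per gene for 36 RNA-seq libraries were used as deposited. Per the labels' protocols, RNA was extracted with TRIzol, poly-A RNA was selected and cDNA was made from random hexamers; HISAT2 2.0.5 and featureCounts 1.5.0-p3, beside CASAVA and DESeq2, are the tools named, and hg38 the build, per the submitters' processing notes. The annotation release, the strand setting and the handling of multiply mapped reads are not given in the sources used here. The deposited raw counts are whole numbers per gene.

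The 36 genes and the 3 further lists (94 genes, 93 used, since ATXN7 names more than 1 gene of the table) were chosen with earlier results of these data known. Groups came from the sample titles. Models in edgeR 4.0.16, run in R 4.3.3 beside limma 3.58.1, took in all 18 libraries of an experiment, with TMM scaling, filterByExpr (minimum count 10, total 15), one mean per group, robust quasi-likelihood test, two-sided, Benjamini-Hochberg adjustment over all genes tested (18398 for IL-8, 18556 for the plasmid) and a threshold of 0.05. All 36 members passed the filter. Differences of response were tested as interaction terms, over the 3 lines and, added after the data were seen, for Cal27 minus HN6. Levels are CPM with TMM factors over all 36 libraries, and RPKM divides these by the table's gene length in kilobases. Every called member is named; the up to 6 largest rises and falls of a comparison are given by library, and up to 3 genes per direction of a further list. A count of 0 in a library allows up to 3 counts. Replicates differed by more than sampling noise, with the lowest chi-square per degree of freedom of a pair at 2.09. Cal27 IL-8 replicate 3 stood far apart, at 134 and 138 against replicates 1 and 2, which gave 2.28 together. HN4 labelled ACLY plasmid replicate 3 gave 45.4 and 50.8 against replicates 1 and 2, which gave 3.62 together. Both libraries were part of the main fits. Promoter windows and motifs were read from RefSeq (GRCh38.p14). The testing procedure was checked on simulated counts. Alternatives were RLE and library-size scaling, no filter, a replicate block, the 2 groups alone, all 36 libraries in 1 fit, DESeq2 1.42.0, and leaving out each library.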

Additional observations from a re-analysis of the deposited data

Results flagged for a closer look

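Responses that differed between lines are listed here by edgeR's adjusted p of the difference. With IL-8, 12 members responded differently among the 3 lines, and with the plasmid 28 did, beside 40.2% and 70.9% of all tested genes. With IL-8, the Cal27 response minus the HN6 response was called, with opposite calls in the 2 lines, for KAT2A (2.62e-06), BRD1 (0.000215), KAT6A (0.00166) and SIRT4 (0.00558). With the ACLY plasmid it was so for KAT2A (2.21e-17), HDAC5 (8.08e-15), NCOA2 (5.37e-10), BRD1 (2.69e-09), HDAC2 (1.54e-08) and KAT6A (1.42e-07). Since 2 opposite calls in the same fit nearly settle this outcome, these values add little to the calls. In these comparisons the treated Cal27 libraries, and no HN6 library, held RNA of genes seen otherwise in HN4 alone, at a median 0.306 of the HN4 level with IL-8 and 0.506 with the plasmid; its part in the differences was not tested. KAT2A in both treated Cal27 groups and HDAC2 and NCOA2 in Cal27 with the plasmid lay outside the range of the control Cal27 and HN4 libraries; the others lay within it or overlapped it.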

How the results depend on the processing

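No called member changed direction under any alternative run. The number of members called stayed within 1.5 times under every alternative run for the plasmid and line comparisons, and did not for IL-8. In HN4 with IL-8, where 1 was called, library-size scaling and DESeq2 each gave 3 and a fit to the 2 groups alone gave 13. In HN6, where 9 were called, the 2 groups alone gave 20 and all 36 libraries in 1 fit gave 14. In Cal27, where 16 were called, the 2 groups alone gave 3. Leaving out 1 library gave 1 to 9 members in HN4 with IL-8, 4 to 20 in HN6, 9 to 17 in Cal27 and 10 to 21 for the difference of the IL-8 response among lines. It gave 12 to 16 between the labelled HN4 groups, 20 to 24 in HN6 with the plasmid, 20 to 28 in Cal27 with the plasmid and 27 to 30 for the difference of the plasmid response among lines. For untreated lines it gave 17 to 27 for HN6 against HN4, 17 to 25 for Cal27 against HN4 and 21 to 27 for Cal27 against HN6. Without Cal27 IL-8 replicate 2, 19 members had differing IL-8 responses, and without replicate 3, 21. The members at 1 CPM or more in all groups stayed at 35.

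Of all genes, 2572 were called in HN4 with IL-8, beside 1613 with the replicate block, 6551 for the 2 groups alone and 1401 to 5738 with 1 library left out. In HN6 it was 2837, beside 6025 for the 2 groups alone and 1742 to 6194 with 1 library left out, and in Cal27 7247, beside 2588 for the 2 groups alone. Library-size scaling gave 792 higher and 1586 lower genes in HN4 with IL-8 and 1695 higher and 939 lower in HN6, and moved the median of all genes by 0.118 on the log2 scale for untreated Cal27 against HN6. The cause of these shifts was not tested.

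Replicate numbers did not pair the libraries: in no treatment comparison did all 3 same-numbered pairs correlate above 0.1. With the replicate block, 1, 8 and 13 members were called with IL-8 in HN4, HN6 and Cal27, and 14, 22 and 21 in the plasmid comparisons in the same order. The block gave 11 and 28 for the differences among lines with IL-8 and with the plasmid, and 18, 20 and 23 for HN6 against HN4, Cal27 against HN4 and Cal27 against HN6. Of the 149 calls of members, 6 were lost with RLE scaling, 14 with library-size scaling, 16 with no filter, 11 with the block, 5 with DESeq2 and 9 with 36 libraries in 1 fit, and 16 of 147 with the 2 groups alone. Depth limits SIRT4 and HDAC10 most.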
